A study of Homo sapiens with 9 samples.

Results

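The keratins described here were 10 genes, KRT80, KRT81, KRT86, KRT7, KRT8, KRT18, KRT10, KRT4, KRT5 and KRT83, taken by symbol from a table of 18364 genes. RNA sequencing measured them in 9 intracranial tumours of nude mice, collected at the terminal stage and formed by cells of LN229, a human glioblastoma line. In 6 tumours the cells expressed TAZ-4SA, a serine-to-alanine mutant of the transcriptional co-activator TAZ that resists inhibition by the Hippo kinases, while the other 3 were empty vector (EV) tumours. The labels give no age of the mice, no promoter for the construct and no number of clones, and they do not tie each tumour to its own animal. The 10 genes were selected on their measured levels in the TAZ-4SA and EV tumours, so the difference between the groups is given for them as a description, with no test. Tests are given for genes outside the 10.

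Keratins are the intermediate filament proteins of epithelia. A filament is built from pairs of a type I (acidic) and a type II (basic) chain, so a cell needs at least one gene of each type. KRT8 and KRT18 form the pair of simple epithelia, KRT7 is a type II chain of glands and ducts, KRT5 and KRT10 belong to stratified epithelia such as epidermis, KRT4 to moist mucosa, and KRT81, KRT83 and KRT86 are type II chains of hair. KRT80 is a broadly expressed type II chain. Filaments are anchored at desmosomes and hemidesmosomes through linker proteins of the plakin family. Glial tumours are better known for vimentin, nestin and GFAP, which are intermediate filaments of other classes. The type I members here were KRT18 and KRT10, and the other 8 were type II.

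The hair keratin sequences are shown first because KRT81 and KRT86 were hard to tell apart by sequence while their levels differed widely. Coding sequences came from GENCODE (release 29, GRCh38), and the differing positions among the 3 genes are in capitals. KRT81 and KRT86 were identical at 92.9% of 1452 aligned coding bases, KRT81 and KRT83 at 92.8% of 1464, and KRT86 and KRT83 at 90.3% of 1450. In the 120-base stretch that differed most, coding bases 1226 to 1345 of KRT81 and KRT86 and 1241 to 1360 of KRT83, 33 positions differed.
KRT81: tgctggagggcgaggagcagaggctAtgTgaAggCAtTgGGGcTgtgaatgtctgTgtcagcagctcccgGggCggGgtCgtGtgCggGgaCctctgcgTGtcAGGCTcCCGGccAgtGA
KRT86: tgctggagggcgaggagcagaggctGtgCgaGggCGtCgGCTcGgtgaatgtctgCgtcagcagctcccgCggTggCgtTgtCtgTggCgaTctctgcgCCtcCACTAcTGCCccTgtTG
KRT83: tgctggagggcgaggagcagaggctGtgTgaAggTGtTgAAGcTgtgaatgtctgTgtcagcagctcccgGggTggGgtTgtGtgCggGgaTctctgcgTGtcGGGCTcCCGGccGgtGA

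In the 120-base stretch that differed least, coding bases 223 to 342 of KRT81 and KRT86, the sequences of KRT81 and KRT86 were the same and KRT83 (bases 238 to 357) differed at 1 position. A short read from this stretch cannot be given to KRT81 or KRT86 by its sequence.
KRT81: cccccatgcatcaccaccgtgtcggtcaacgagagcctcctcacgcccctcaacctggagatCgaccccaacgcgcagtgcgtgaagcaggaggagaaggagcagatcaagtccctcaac
KRT86: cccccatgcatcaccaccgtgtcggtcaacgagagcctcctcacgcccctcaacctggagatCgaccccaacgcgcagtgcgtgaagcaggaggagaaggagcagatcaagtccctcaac
KRT83: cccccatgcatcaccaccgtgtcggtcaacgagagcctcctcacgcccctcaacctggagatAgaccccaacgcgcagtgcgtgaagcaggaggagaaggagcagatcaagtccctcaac

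How far a keratin's reads could belong to another gene was measured as the share of 50-base words of its coding sequence that also occur, on either strand, in a GENCODE transcript of another gene. The share was 57.2% for KRT81 and 56.8% for KRT86, mostly with each other, since 721 words were common to both. It was 45.6% for KRT8 and 58.0% for KRT18, whose words occurred in 33 and 43 pseudogenes named after them. The gene that shared most with KRT18 was KRT8 itself, whose transcripts held 26.3% of KRT18's words. KRT83 had 16.3% and KRT7 13.5%, the latter almost wholly with the overlapping antisense gene KRT7-AS. KRT5 had 5.75%, KRT80 1.22%, KRT10 0.528% and KRT4 0%. The library chemistry does not keep the strand, and how reads with several placements were counted is not given in the sources used here. By this measure KRT81, KRT86, KRT8 and KRT18 are more open to misplaced reads than KRT80, KRT10 and KRT4. Mouse transcripts and the untranslated parts of the 10 keratins were not searched. KRT10 also overlaps an antisense gene, KRT10-AS1, by 3470 bases.

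**Figure D1:**
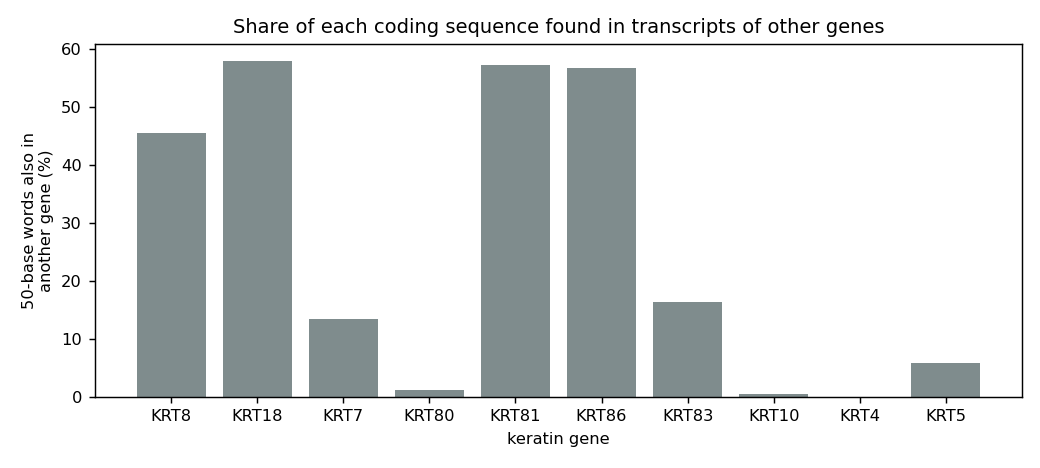
Share of 50-base words of each keratin's longest coding sequence (vertical axis, percent) that also occur in a transcript of another gene, for the 10 keratins. KRT8, KRT18, KRT81 and KRT86 stand between 45.6% and 58.0%, and KRT80, KRT10 and KRT4 at or below 1.22%.

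Totals over the table were 3144861 to 31468135 reads in the TAZ-4SA tumours and 17314672 to 21576264 in the EV tumours. The number of genes at 0 reads was 2990 to 7365 per TAZ-4SA tumour and 505 to 622 per EV tumour, highest in TAZ-4SA tumours 2, 3 and 4. Among 3383 genes with an EV mean of 20 to 50 CPM (reads per 1000000 reads of the library), the share at 0 reads was 18.3% in TAZ-4SA tumour 2, 12.9% in tumour 3, 13.0% in tumour 4, 1.09% in tumour 5 and 0% in each EV tumour. The gene of the construct, WWTR1, was read at 217.6 to 449.2 CPM under TAZ-4SA and at 116.4 to 122.8 CPM under EV, so no tumour went against its label. Of the glial and glioma markers, VIM and NES were abundant in all 9 tumours. NES was lower with TAZ-4SA (158.4 ± 60.5 CPM) than with EV (1324 ± 35.1 CPM). OLIG2 (4.19 ± 4.67 against 35.0 ± 10.3 CPM) and SOX2 (10.8 ± 11.0 against 37.9 ± 4.20 CPM) lay wholly lower but were not called (limma adjusted p = 0.0668 and 0.1688). Of 6 tested, 2 were called lower (13.3% over all genes tested), 0 higher (9.02%), and 4 lay wholly lower (21.3%). GFAP, the astrocyte filament, ranged from 0 to 103.6 CPM with TAZ-4SA and from 5.00 to 18.7 CPM with EV. AQP4, an astrocyte water channel, was at or under 0.387 CPM in EV. With TAZ-4SA it had 19 reads (5.32 CPM) in tumour 5, above every EV tumour, 1 read in tumour 3 and none in the other 4. S100B, a glial calcium-binding protein gene, fell from 207.9 ± 43.4 CPM (EV) to 2.95 ± 4.43 CPM (TAZ-4SA; limma adjusted p = 0.004506). In bulk tumour RNA, fewer cells of a type and less RNA per cell cannot be told apart.

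All 10 keratins had a read in at least 1 tumour of TAZ-4SA, and all 10 passed the filter of a mean of 1 CPM over the 9 tumours. KRT83 and KRT5 passed it only through 1 and 2 TAZ-4SA tumours. KRT4 and KRT7, with EV means of 0.016 and 0.656 CPM, also owed it to TAZ-4SA tumours. The summed level of the 10 keratins was 807.1 to 1674 CPM in the TAZ-4SA tumours and 156.2 to 251.6 CPM in the EV tumours. The groups did not overlap for KRT80 and KRT81, both higher in TAZ-4SA, and overlapped for the other 8. Over all 15578 genes tested, 10.8% lay wholly higher in TAZ-4SA and 21.3% wholly higher in EV, 32% in all. Because the genes were selected on this comparison, nothing is read from that count. The median log2 difference was 1.28 over the 10 keratins and -0.85 over all genes tested. The same selection shapes that median, so nothing is read from it either.

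**Figure D2:**
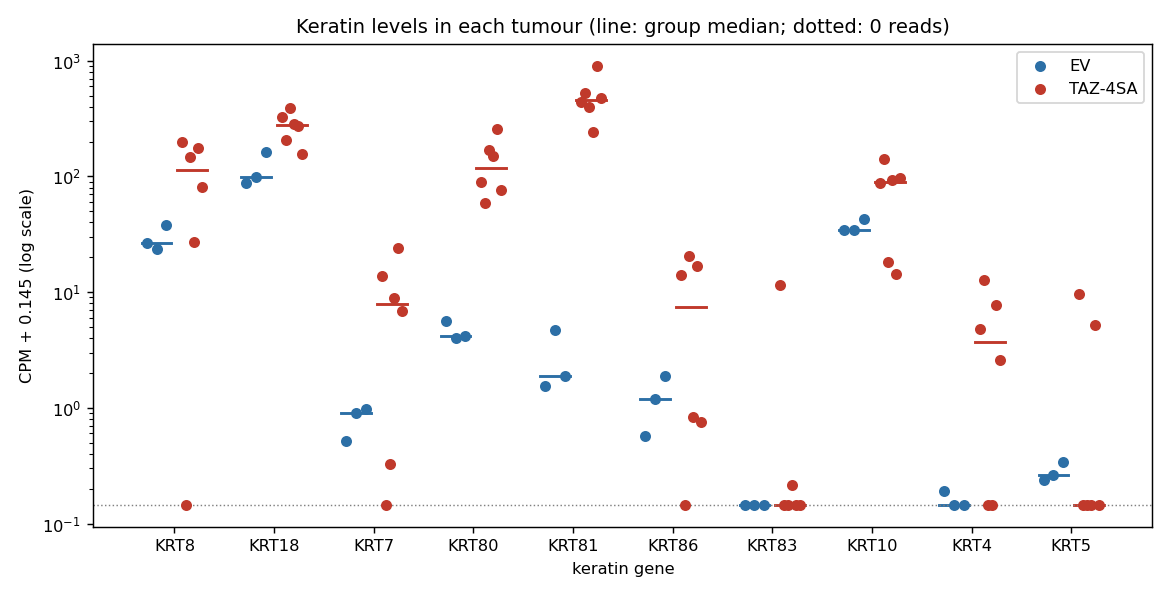
Level of each of the 10 keratins (horizontal axis) in each tumour, in CPM plus the authors' prior of 0.145 CPM on a log scale. Points are tumours (EV in blue, TAZ-4SA in red), lines are group medians, and the dotted line is the level of 0 reads; KRT80 and KRT81 are the 2 genes whose groups do not overlap, and KRT8 has 1 TAZ-4SA tumour at 0 reads.

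KRT18, the type I chain of simple epithelia, was the most abundant keratin of the EV tumours. It lies on chromosome 12 from 52948855 to 52952906 (GRCh38, RefSeq), at the end of the type II cluster. Its level was 88.1, 98.6 and 163.2 CPM in EV tumours 1, 2 and 3, and 157.4, 280.0 and 392.8 CPM as the lowest, median and highest value in TAZ-4SA. TAZ-4SA tumour 6 and EV tumour 3 were the only pair to cross, by 157.4 against 163.2 CPM. The means were 274.0 ± 84.5 CPM (SD, n = 6) and 116.6 ± 40.7 CPM (SD, n = 3), a ratio of 2.35. The log2 difference of 1.22 lay between 1.05 and 1.49 when any single tumour was left out.

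KRT8, the type II partner of KRT18, occupies 52897191 to 52949860 on chromosome 12 and overlaps KRT18 by 1006 bases on the opposite strand. It stood at 26.3, 23.4 and 37.5 CPM in EV tumours 1, 2 and 3. In TAZ-4SA it was 196.6, 148.0, 177.4 and 80.1 CPM in tumours 1, 3, 5 and 6, but 26.9 CPM in tumour 4 and 0 reads in tumour 2, where 3 reads would be 0.303 CPM. Tumours 1, 3, 5 and 6 therefore lay above every EV tumour, tumour 4 within the EV range and tumour 2 below it. The means were 104.8 ± 81.5 CPM and 29.1 ± 7.47 CPM, a ratio of 3.61, whereas the mean of the log2 values differed by 0.26. That log2 difference rests on tumour 2. It was 1.84 without tumour 2, -0.24 without tumour 1, -0.16 without tumour 3 and -0.21 without tumour 5. Tumour 2 was also the tumour with 18.3% of genes of similar EV level at 0 reads; whether the 0 for KRT8 belongs with that was not tested.

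The level of KRT8 relative to KRT18, both as CPM per 1000 coding bases, was 0.251, 0.199 and 0.193 in EV tumours 1, 2 and 3. In TAZ-4SA it was 0.503, 0.317, 0.544 and 0.428 in tumours 1, 3, 5 and 6, 0.0794 in tumour 4 and 0 in tumour 2. KRT18 thus exceeded KRT8 per length in all 9 tumours, and the ratio varied more among the TAZ-4SA tumours than among the EV tumours.

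KRT7, the type II chain of glandular epithelia (52233243 to 52255853), was close to the floor in EV with 0.375, 0.756 and 0.838 CPM, that is 8, 13 and 13 reads. In TAZ-4SA it was 13.7, 8.81, 23.8 and 6.72 CPM in tumours 1, 4, 5 and 6, while tumour 3 had 3 reads and tumour 2 none. Tumours 1, 4, 5 and 6 lay above every EV tumour and tumours 2 and 3 below. The log2 difference of 2.03 was 4.09 without tumours 2, 3 and 4 and 1.01 without tumours 5 and 6, which had the fewest reads.

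KRT80 (52168996 to 52192014), which opens the cluster, was separated between the groups in every tumour. The EV values were 5.43, 3.90 and 4.06 CPM, from 116, 67 and 63 reads. In TAZ-4SA the lowest, median and highest values were 58.5, 119.1 and 254.7 CPM. The means of 132.4 ± 73.4 and 4.46 ± 0.844 CPM gave a ratio of 29.7 and a log2 difference of 4.68, which stayed between 4.45 and 4.88 with any tumour left out. Of its coding words 1.22% occurred in other GENCODE genes, while its untranslated parts and mouse transcripts were not searched.

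KRT81, a type II hair keratin (52285913 to 52291534), had the widest difference of the 10. EV tumours 1, 2 and 3 held 30, 78 and 27 reads, or 1.41, 4.54 and 1.74 CPM. The lowest, median and highest TAZ-4SA values were 243.4, 460.0 and 900.6 CPM. The means were 499.0 ± 219.6 and 2.56 ± 1.72 CPM, a ratio of 194.9 and a log2 difference of 7.60 (7.28 to 8.08 with any tumour left out). In the TAZ-4SA tumours KRT81 alone made up 30.2% to 56.0% of the summed CPM of the 10 keratins, against 0.692% to 2.73% in EV.

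KRT86 (52274645 to 52309163) encloses KRT81 within its gene span on the opposite strand. It had 13.8, 20.3 and 16.5 CPM in TAZ-4SA tumours 1, 3 and 5, but 0, 0.683 and 0.611 CPM in tumours 2, 4 and 6, and 0.422, 1.05 and 1.74 CPM in EV. Tumours 1, 3 and 5 lay above every EV tumour, tumours 4 and 6 (19 and 2 reads) within the EV range and tumour 2 (0 reads) below it. The reads given to KRT86 were 0 to 5.07% of those given to KRT81 in the same TAZ-4SA tumour, and 30.0%, 23.1% and 100% in EV tumours 1, 2 and 3. How many of the KRT86 reads stem from KRT81 cannot be settled from gene totals.

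KRT83, the third hair chain (52314301 to 52321398), had no read in any EV tumour. It had 212 reads (11.3 CPM) in TAZ-4SA tumour 1, 2 reads in tumour 4 and none in the other 4. Its value therefore comes from a single tumour. KRT81 and KRT83 are neighbours of near-equal sequence, and 49.2% of KRT81's words are found in KRT86 but 7.98% in KRT83.

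KRT10, a type I chain of differentiating epidermis on chromosome 17 (40818117 to 40822614), was spread most among the abundant keratins that every tumour expressed. The EV values were close together at 34.0, 34.0 and 42.4 CPM. In TAZ-4SA, tumours 1, 2, 4 and 6 had 86.7, 141.0, 93.2 and 97.2 CPM, and tumours 3 and 5 had 18.1 and 14.3 CPM. Tumours 3 and 5 lay below every EV tumour and the other 4 above. The SD of the log2 values was 1.40 in TAZ-4SA and 0.18 in EV. The tumours with the least KRT10 were those with the most KRT80 (167.3 and 254.7 CPM), and Pearson's r between the log2 values of KRT10 and KRT80 over the 6 TAZ-4SA tumours was -0.87, a description over 6 points that share library and depth. KRT10 overlaps the antisense gene KRT10-AS1 by 3470 bases; KRT10-AS1, added here after its values were seen, had 0.307 and 5.60 CPM in tumours 3 and 5, 20.4 and 25.6 CPM in tumours 1 and 2, and 0 and 1.83 CPM in tumours 4 and 6.

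KRT4 and KRT5, chains of stratified epithelia, were near the floor in EV. KRT4 (52806549 to 52814116) had 1 read over the EV tumours and 88, 124, 27 and 8 reads in TAZ-4SA tumours 1, 2, 5 and 6, which is 4.70, 12.5, 7.56 and 2.45 CPM, with none in tumours 3 and 4. No 50-base word of the KRT4 coding sequence occurred in a GENCODE transcript of another gene. KRT5 (52514575 to 52520394) had 2, 2 and 3 reads in the EV tumours, 177 in TAZ-4SA tumour 1 and 18 in tumour 5 (9.45 and 5.04 CPM), and none in the other 4. Tumour 1 was the only one of the 9 with a read in all 10 keratins, and tumour 2 had reads in 5.

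Among the 10 keratins, the balance between the chain types differed between the groups in all 9 tumours. Because the 10 were selected on their levels in these groups, this describes the chosen genes and not keratin balance at large. Other keratins, among them the type I chains KRT17 and KRT15, are not in the sums. KRT17 had 37.2 CPM in TAZ-4SA tumour 5, where KRT10 had 14.3 CPM, and no read in tumours 2 and 4. Per 1000 coding bases, the type II members summed to 295.0 to 934.0 CPM in TAZ-4SA and 22.4 to 30.5 CPM in EV. The type I members summed to 177.0 to 315.0 CPM and 87.7 to 151.0 CPM. The ratio of type II to type I was 0.203 to 0.259 in EV and 1.07, 1.69 and 4.23 as the lowest, median and highest value in TAZ-4SA. KRT8 made up 68.0% to 80.2% of the type II sum in EV, while KRT81 made up 53.0% to 87.2% in TAZ-4SA and was the leading type II chain in all 6 tumours. Coding length leaves out untranslated parts, which are long in KRT80 (a transcript of 3859 bases for 1356 coding bases), so its level per length is overstated relative to KRT81 (1929 and 1515 bases).

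**Figure D3:**
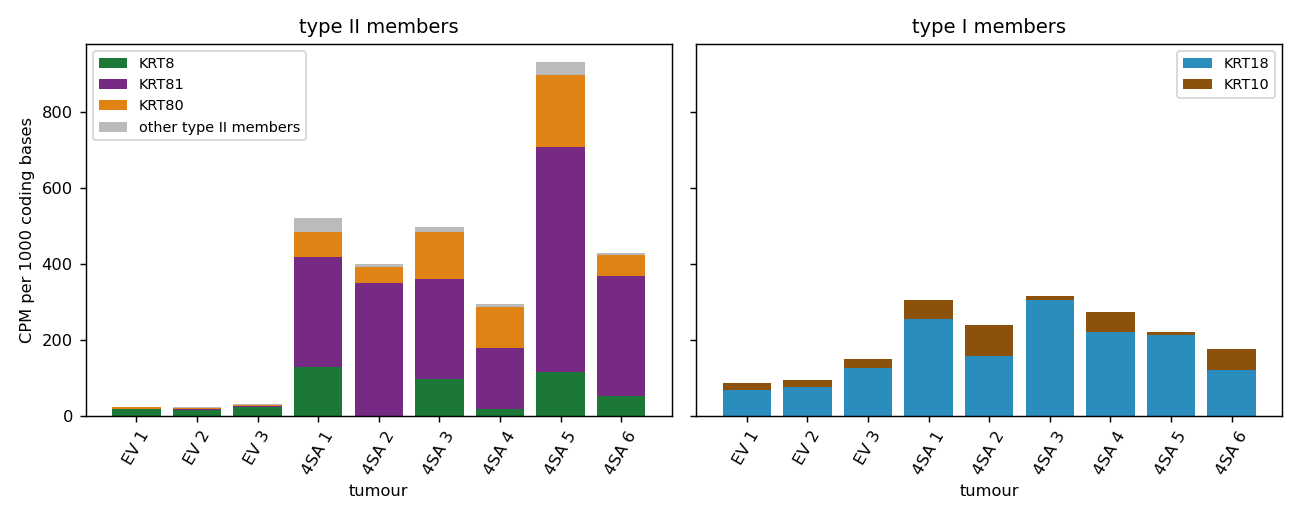
Summed level of the type II members (left) and the type I members (right) in each tumour, in CPM per 1000 coding bases, on a common axis. KRT81 (purple) is the largest part of the type II bar in all 6 TAZ-4SA tumours, and the EV type II bars do not exceed 30.5.

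RefSeq places 27 keratin genes between KRT80 and KRT18 on chromosome 12 (52168996 to 52952906), of which 16 were in the table. In chromosomal order, high TAZ-4SA levels stood at the edges of the cluster, with KRT80 and KRT81 at one end and KRT8 and KRT18 at the other. The 8 measured genes of the interval outside the 10 keratins, 7 keratins and LINC00592, had TAZ-4SA means up to 2.86 CPM and EV means up to 0.930 CPM. All of those 8 had 0 reads in 5 of the 6 TAZ-4SA tumours. KRT75, for example, had 227 reads in tumour 1 and 0 in the other 5, and KRT1 had 170 reads in tumour 2 and 0 in the other 5.

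**Figure D4:**
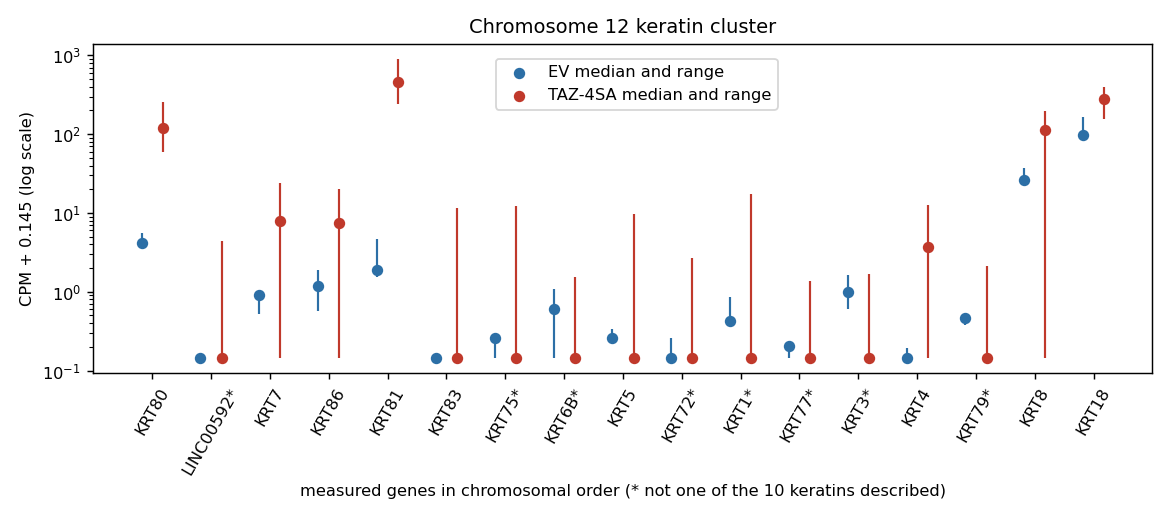
Median and range of CPM plus 0.145 (log scale) for each measured gene of the chromosome 12 keratin cluster in chromosomal order, EV in blue and TAZ-4SA in red. KRT80, KRT81, KRT8 and KRT18 reach the highest levels, and the starred genes, which are not among the 10, all have a TAZ-4SA median at 0 reads.

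Few other keratins could be tested. Of 27 other type I keratins 8 were in the table and 4 were tested, and of 18 other type II keratins 7 were in the table and 2 were tested. Limma called none of these 6 at an adjusted p of 0.05, none had an unadjusted p under 0.05, and limma-voom called none. KRT27, KRT38, KRT1 and KRT75 passed the filter through 1 TAZ-4SA tumour each and could hardly be called. KRT15 also passed only through TAZ-4SA tumours. The absence of calls therefore does not show that other keratins were unchanged. Of all genes tested, limma called 9.02% higher and 13.3% lower, 22.4% in all. KRT17, a type I chain induced in injured epidermis, had 13.3, 16.4, 37.2 and 13.8 CPM in TAZ-4SA tumours 1, 3, 5 and 6, no read in tumours 2 and 4, and 4.68, 7.85 and 5.54 CPM in EV. Its log2 fold change of -0.72 (limma adjusted p = 0.809) was 1.66 without tumours 2, 3 and 4 (limma adjusted p = 0.06542). KRT15, a basal type I chain, had 4.33, 8.05 and 4.48 CPM in TAZ-4SA tumours 1, 3 and 5 no read in the other 3, and at most 0.233 CPM in EV (limma adjusted p = 0.4102). KRT27 and KRT38 each had reads in a single TAZ-4SA tumour, tumour 2, with 105 and 150. KRT14, the type I partner of KRT5 in basal epidermis, did not pass the filter; it had 22, 17 and 63 reads in the EV tumours and none in any TAZ-4SA tumour, and it was called lower when the filter was dropped (limma adjusted p = 0.0005417), without tumours 2, 3 and 4 (limma adjusted p = 0.02711) and without tumours 5 and 6 (limma adjusted p = 0.00469).

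Genes that anchor keratin filaments at the cell surface moved in both directions. Of 14 desmosome genes 9 were in the table and 8 were tested; 2 rose, 1 fell and 5 were not called. PKP4, an armadillo-repeat plaque protein gene, rose from 77.5 ± 11.7 to 187.1 ± 28.4 CPM (log2 fold change 1.26 ± 0.26 SE, limma adjusted p = 0.004512). DSG2, the desmosomal cadherin of simple epithelia, rose from 43.2 ± 5.31 to 132.4 ± 56.5 CPM (limma adjusted p = 0.01813). It was not called without EV tumour 1 or EV tumour 2 (limma adjusted p = 0.08123 and 0.08298). Nor was it called without TAZ-4SA tumours 5 and 6 (limma adjusted p = 0.06293) or with the replicate number as a block (0.165). That block compares same-numbered tumours only, so TAZ-4SA tumours 4, 5 and 6, with no EV tumour of the same number, drop out of the contrast. PKP1, the plaque protein of stratified epithelia, fell from 4.83 ± 1.88 to 0.327 ± 0.800 CPM, and 5 TAZ-4SA tumours had no read (limma adjusted p = 0.01738). It was not called after quantile normalization (limma adjusted p = 0.139), without tumours 2, 3 and 4 (0.07004), or without EV tumour 1, 2 or 3 (0.06846, 0.1038 and 0.08888).

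DSP, the plakin that binds keratin to every desmosome, did not pass the filter. It had 0.375, 0.581 and 0.838 CPM in EV, 4.28 CPM in TAZ-4SA tumour 6, 1 read in tumour 3 and none in the other 4. In 5 of the 6 TAZ-4SA tumours DSP was thus at or under 1 read, below the floor of 3. PERP, a desmosome-associated membrane protein gene, averaged 37.9 ± 13.5 CPM with TAZ-4SA against 14.8 ± 3.83 CPM with EV (limma adjusted p = 0.05309). Limma called it when TAZ-4SA tumour 2, 4 or 5 was left out (adjusted p = 0.03895, 0.04215 and 0.0354), without tumours 2, 3 and 4 (0.02988), with no filter (0.02905), with a filter of 10 CPM (0.04517) and after quantile normalization (0.03018). PERP was named after its values were seen.

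All 13 hemidesmosome and plakin genes were tested, and 4 rose, 4 fell and 5 were not called. LAMB3 rose from 7.94 ± 1.73 to 213.9 ± 84.0 CPM (log2 fold change 4.66 ± 0.38 SE, limma adjusted p = 7.658e-06); it encodes a laminin chain of the epithelial basement membrane. LAMA3, another laminin chain gene of that membrane, fell from 5.35 ± 0.708 CPM to 15 reads in tumour 5 and none in the other 5 TAZ-4SA tumours (limma adjusted p = 0.02663). COL17A1, the transmembrane collagen of hemidesmosomes, rose from 1, 5 and 0 reads in the EV tumours to 3.67, 12.5 and 18.8 CPM as the lowest, median and highest TAZ-4SA values (limma adjusted p = 0.005317). MACF1, a spectraplakin gene, rose from 199.0 ± 10.7 to 563.7 ± 161.8 CPM (limma adjusted p = 0.003665).

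Genes called lower included ITGB4 and CD151. ITGB4, the integrin chain that binds plectin, fell from 134.9 ± 27.1 to 17.6 ± 13.6 CPM (limma adjusted p = 0.01834). CD151, its tetraspanin partner, fell from 264.0 ± 18.3 to 103.5 ± 76.5 CPM (limma adjusted p = 0.02867), with TAZ-4SA tumour 5 at 254.4 CPM. ITGA6, the integrin chain that pairs with ITGB4, had 0.0615, 30.3 and 53.8 CPM as the lowest, median and highest TAZ-4SA values and 97.2 to 110.9 CPM in EV, and was not called (limma adjusted p = 0.1867). It was called lower without TAZ-4SA tumour 3 (limma adjusted p = 0.01277), without tumours 2, 3 and 4 (0.01865) and by limma-voom (0.02441). EVPL, encoding the desmosomal plakin envoplakin, fell from 34.4 ± 8.70 to 1.71 ± 2.96 CPM, and 4 TAZ-4SA tumours had no read (limma adjusted p = 0.01526). PLEC, encoding plectin, the main linker of keratin to integrin, averaged 1729 ± 1462 CPM with TAZ-4SA against 470.3 ± 94.2 CPM with EV (limma adjusted p = 0.07723). It was called when TAZ-4SA tumour 2 was left out (limma adjusted p = 0.03204) and by limma-voom on reads (0.04534).

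These counts rest on all 3 EV tumours: leaving out 1 of them left 2 to 3 of the 13 called (2, 3 and 2 without EV tumour 1, 2 and 3). ITGB4, EVPL, LAMA3 and CD151 were not called when any single EV tumour was left out (limma adjusted p from 0.05582 to 0.1201), and COL17A1 not without EV tumour 1 or 3 (limma adjusted p = 0.05944 and 0.05196). Of these genes, EVPL and LAMA3 were also not called without TAZ-4SA tumours 2, 3 and 4 (limma adjusted p = 0.05691 and 0.1095), nor was CD151 (0.1109). CD151 lost its call without TAZ-4SA tumour 1, 4 or 6 (limma adjusted p = 0.05998, 0.05587 and 0.05288) and LAMA3 without tumour 6 (0.05043) and after quantile normalization (0.1229). With the replicate number as a block, which drops TAZ-4SA tumours 4, 5 and 6 from the contrast, MACF1, EVPL and ITGB4 lost theirs (limma adjusted p = 0.07744, 0.09371 and 0.07955). The loss of those tumours and the block itself cannot be told apart there. LAMB3 was called in every alternative run. LAMA3, ITGB4 and CD151 were named to complete the counts after their values were seen.

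**Figure D5:**
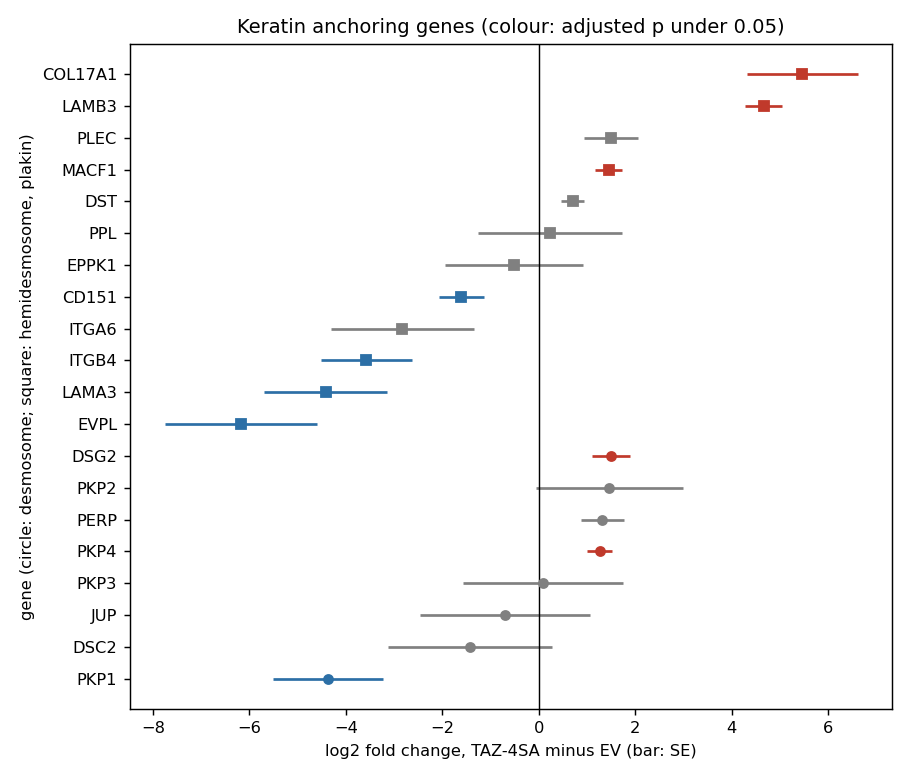
Log2 fold change (TAZ-4SA minus EV, horizontal axis, bars SE) of the 8 tested desmosome genes (circles) and 12 hemidesmosome and plakin genes (squares). Red and blue mark genes called higher and lower at a limma adjusted p of 0.05, grey genes not called; LAMB3 at 4.66 and EVPL at -6.18 lie on opposite sides.

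Among genes of the cornified envelope, the cross-linked shell of dead epidermal cells, 7 of 13 were in the table and 4 were tested; FLG rose and 3 were not called. FLG, encoding filaggrin, which bundles keratin filaments in epidermis, had 8, 0 and 0 reads in EV tumours 1, 2 and 3 and 27.2, 39.3 and 59.5 CPM as the lowest, median and highest TAZ-4SA values (log2 fold change 7.51 ± 1.00 SE, limma adjusted p = 0.0003364). Below the filter, IVL had 9 reads in TAZ-4SA tumour 5 and none in any other tumour of either group. KLK7 had 23, 17 and 16 reads in the EV tumours and none in any TAZ-4SA tumour. It was called lower when the filter was dropped (limma adjusted p = 0.0001668).

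Of 15 keratin-binding and filament-organising genes 14 were tested, 2 rose and 12 were not called. CSNK1A1, a kinase recruited to keratin filaments, rose from 59.3 ± 15.6 to 178.4 ± 30.3 CPM (limma adjusted p = 0.002102), and YWHAZ, a 14-3-3 adaptor gene, from 178.2 ± 25.3 to 495.1 ± 95.8 CPM (limma adjusted p = 0.001392). Both have many functions beyond keratins.

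Epithelial identity genes did not rise as a list. Of 24 listed, 17 were in the table and 12 were tested; 1 rose, 1 fell and 10 were not called, and their median log2 difference was -1.86 where that of all genes tested was -0.85. KLF5, a transcription factor gene of basal and intestinal epithelium, rose from 12.7 ± 5.29 to 142.8 ± 53.6 CPM (log2 fold change 3.45 ± 0.42 SE, limma adjusted p = 0.0001801). TFAP2C, another epithelial and neural crest transcription factor gene, fell from 86.0 ± 6.77 to 13.3 ± 10.8 CPM (limma adjusted p = 0.01674), and was not called without EV tumour 1, 2 or 3 (limma adjusted p = 0.09163, 0.09589 and 0.0731) or with the replicate block (0.114). CDH1, the epithelial cadherin, had 30.9 CPM in TAZ-4SA tumour 1, 3.92 CPM in tumour 5, 0 reads in the other 4, and 0.468, 0.349 and 0.903 CPM in EV (limma adjusted p = 0.9608). EPCAM was not analysed here. GRHL3 and OVOL2, epithelial transcription factor genes below the filter, had no read in any TAZ-4SA tumour. In EV tumours 1, 2 and 3 GRHL3 had 22, 14 and 18 reads and OVOL2 24, 22 and 10. Both were called lower when the filter was dropped (limma adjusted p = 0.000189 and 0.0002709).

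Markers of other cell types were measured beside the keratins. Host cells in these tumours would be mouse cells, while the genes measured are human and any removal of mouse reads is not given. The values therefore do not give the amount of host cells. The 6 mesothelial markers in the table summed to 0.202 to 74.7 CPM in TAZ-4SA and 3.84 to 8.06 CPM in EV, with none of 3 tested called by limma or limma-voom and none at an unadjusted p under 0.05, and WT1 had 1 read over the 6 TAZ-4SA tumours. The 5 endothelial markers summed to 0 to 13.1 CPM and 9.48 to 14.6 CPM; VWF, the 1 tested, was not called by limma (adjusted p = 0.09483) and was called by limma-voom. Of the immune markers, CD68 was higher in TAZ-4SA (limma adjusted p = 0.004116, and 0.05063 with the replicate block). CD68 had 86.5 to 141.8 CPM in tumours 1, 3, 5 and 6, 59.2 and 32.9 CPM in tumours 2 and 4, and 12.6 to 22.7 CPM in EV. PTPRC had 123 reads (12.4 CPM) in TAZ-4SA tumour 2, none in the other 5, and at most 0.0581 CPM in EV. ITGAM had 21.8 and 10.6 CPM in TAZ-4SA tumours 4 and 5, no read in the other 4, and 1.57 to 2.76 CPM in EV. PTPRC and ITGAM were not called (limma adjusted p = 0.7154 and 0.4988). Of the genes of basal keratinocytes, KRT14 had no read in any TAZ-4SA tumour. TP63 had 14 reads (4.28 CPM) in TAZ-4SA tumour 6, above every EV tumour, 1 read in tumour 4, none in the other 4, and 7, 7 and 1 reads in the EV tumours. KRT5, KRT15 and COL17A1, also genes of basal keratinocytes, have their values above, with KRT5 and KRT15 above every EV tumour in 2 and 3 TAZ-4SA tumours and COL17A1 in all 6. KRT81 and KRT80 were highest in TAZ-4SA tumour 5, which also held the most GFAP (103.6 CPM) and the highest mesothelial sum; the part of other cells in any keratin value was not tested.

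The non-keratin intermediate filament genes gave 0 higher, 3 lower and 9 not called of 12 tested. NES, encoding nestin, fell from 1324 ± 35.1 to 158.4 ± 60.5 CPM (limma adjusted p = 3.943e-05), SYNM, encoding synemin, from 152.4 ± 16.0 to 34.9 ± 21.6 CPM (limma adjusted p = 0.005128), and PRPH, encoding peripherin, from 3.65 ± 0.565 CPM to 0 reads in each TAZ-4SA tumour (limma adjusted p = 0.00227, and 0.1923 after quantile normalization). VIM, the most abundant filament gene of these tumours, averaged 2250 ± 497.5 CPM with TAZ-4SA and 1820 ± 245.1 CPM with EV (limma adjusted p = 0.3931). The summed keratin level of 807.1 to 1674 CPM in TAZ-4SA thus lay below VIM in tumours 1, 2, 3, 4 and 6 and above it in tumour 5.

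The genes whose log2 values over the 9 tumours were most like a keratin's were sought among the 12033 genes that averaged 5 CPM or more. For KRT80 they were MICAL2 (Pearson's r = 0.992), an actin-oxidising monooxygenase gene, LINC00452 (0.990) and MYH9 (0.989), the non-muscle myosin heavy chain gene. For KRT7 they were P3H2 (0.966), LRRC15 (0.950) and ZBTB26 (0.943). For KRT18 they were NEAT1 (0.979), HAPSTR1 (0.954) and EHD4 (0.953). For KRT8 they were ARHGAP18 (0.987), EDEM1 (0.985) and CERS6 (0.981), and of these ARHGAP18 and CERS6 also had 0 reads in TAZ-4SA tumour 2 and EDEM1 was lowest there. These values describe 9 points in 2 groups.

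Promoter windows of 300 bases, from 250 before to 50 after the start, were held by RefSeq (GRCh38.p14) for KRT8, KRT10, KRT4 and KRT5. They were searched on both strands for GGAATG, the core bound by TEAD factors, the DNA-binding partners of TAZ, and for TGANTCA, the AP-1 core. GGAATG occurred in 14.0% and TGANTCA in 7.71% of 35116 such windows. The KRT8 window alone held a match, to GGAATG, whose first base is base 18 with the start counted as base 1. That start lies inside the KRT8 span given above, not at its outer end. It is shown with its flanks (chr12:52926437-52926462, minus strand, the match in capitals).
KRT8: aaatgtttgcGGAATGaatggggtga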

How the data were processed

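RNA from 9 tumours was sequenced after SMART-Seq and Nextera XT library preparation, per the labels' protocols. The authors used HISAT2, edgeR and GRCh38, per the submitters' processing notes, which give no roles or versions. Not given in the sources used here are counting, annotation, gene filter and any removal of mouse reads. Values were deposited as log2 CPM, a unit read from the values, with the lowest value of -2.786 (0.145 CPM) in all tumours. After this prior was removed on the linear scale, 100% of values under 5000 reads were whole within 0.1 read, which gave reads and CPM per gene; a floor is 3 reads and, like SDs, covers no amplification bias, since the libraries held no molecular identifiers.

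Groups came from the labels. Tests were limma 3.58.1 (R 4.3.3) on the deposited log2 values, using its trend and robust options, for the 15578 genes averaging 1 CPM or more, prior included, with Benjamini-Hochberg adjustment over all of them at 0.05; the code was tested on simulated data. Fold changes include the prior and understate low genes. Replicates are separate samples by their labels only, so the p-values cover only the spread of these tumours, which may be technical; no pair agreed within sampling noise (lowest chi-square per degree of freedom 18.6).

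The keratins, gene lists and tests were chosen with earlier results of these data known. Named were the 10 keratins, tested other keratins, up to 4 called genes with the smallest p per list, a fixed set (WWTR1, VIM, GFAP, NES, SYNM, CDH1, EPCAM, DSP, PLEC), the 3 genes most like KRT80, KRT7, KRT8 and KRT18, and, after their values were seen, the other genes given with values (ITGB4, ITGA6, LAMA3, CD151, PERP, CD68, S100B, KRT14, KRT10-AS1, AQP4, IVL, KLK7, GRHL3, OVOL2, TP63, WT1, VWF and PTPRC). 1 called gene of the hemidesmosome and plakin list is counted but not reported here. Identifiers of 18136 genes matched RefSeq, and coding lengths came from GENCODE, where RefSeq proteins had been planned. Alternatives were other pseudocounts, filters and scalings, limma-voom on reads, a replicate block, each tumour left out and, chosen after seeing the data, 2 subsets of TAZ-4SA tumours.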

Additional observations from a re-analysis of the deposited data

Results flagged for a closer look

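A TAZ-4SA tumour far from the other 5 on the log2 scale, by Dixon's ratio of gap to range with a 95% critical value of 0.625 for 6 samples, was found for 11 of 55 genes looked at. Chance flags about 1 in 20 groups, a rate that cannot be set against this count, because KRT83, KRT27, KRT38, KRT1 and KRT75 passed the filter through 1 tumour and had to stand apart. Tumour 2 was far below the others for KRT8 (ratio 0.725; 0 reads against 26.9 to 196.6 CPM), ARHGAP18 (0.729; 0 reads against 7.76 to 34.9 CPM) and EDEM1 (0.822; 2.32 against 57.9 to 114.7 CPM). ARHGAP18 and EDEM1 were looked at because their values were most like those of KRT8, so their flags are not separate from its flag. Tumour 2 was the only TAZ-4SA tumour with reads for KRT27 (10.6 CPM), KRT38 (15.1 CPM) and KRT1 (17.2 CPM), each with a ratio of 1.000. Tumour 1 was far above the others for KRT83 (0.908; 11.3 CPM against at most 0.0719) and KRT75 (1.000; 12.1 CPM against 0). Tumour 5 was the only one with reads for PKP1 (1.000; 1.96 CPM) and LAMA3 (1.000; 4.20 CPM). Tumour 6 was far above the others for DSP (0.897; 4.28 CPM against at most 0.0615).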

How the results depend on the processing

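The log2 difference of KRT80, KRT81, KRT86, KRT7, KRT18, KRT10, KRT4, KRT5 and KRT83 stayed positive under the pseudocounts, scalings, left-out tumours and subsets run, though without TAZ-4SA tumour 1 it fell to 0.10 for KRT5 and 0.12 for KRT83, which then miss the filter, while that of KRT8 (0.26) ranged from -0.24 to 1.84 with a tumour left out and was -0.64 without TAZ-4SA tumours 5 and 6. Quantile normalization moved the median over all genes from -0.85 to -0.053, and KRT80 to 6.81 and KRT81 to 9.76; a pseudocount of 2 CPM moved KRT81 to 6.73. Calls over all genes were 1405 higher and 2079 lower, and 2042 and 1626 after quantile normalization; leaving out a tumour gave 1450 to 4230 calls in all. Without the filter, 1 other type I keratin, 2 cornified envelope and 5 epithelial identity genes were called, against 0, 1 and 2. The genes gained in these lists were all called lower. The other type I count was also 1 without tumours 2, 3 and 4 and without tumours 5 and 6, and the non-keratin filament count of 3 was 6 without tumours 5 and 6. Keratin-binding calls (2) were 4 under median-of-ratios scaling and 5 by limma-voom, which also called 5 non-keratin filament genes. With a tumour left out, calls ranged from 1 to 4 for desmosome genes, 2 to 10 for hemidesmosome and plakin genes, 2 to 4 for keratin-binding genes, 1 to 3 for epithelial identity genes and 2 to 5 for non-keratin filament genes.

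Uncalled genes changed sign. KRT17 was 0.25, 1.63 and 1.66 with a 2 CPM pseudocount, quantile normalization and without tumours 2, 3 and 4, and -1.39 to 0.21 with a tumour left out. KRT1 was 0.28, 1.71 and, with the replicate block, 0.47. CDH1 was 0.58, 2.13, 0.35 with the block, 1.95 without tumours 2, 3 and 4, and -0.69 to 0.28 with a tumour left out. GFAP was 0.42 without tumours 2, 3 and 4. Below the filter, and so without a value, were CDH1 and KRT75 without TAZ-4SA tumour 1, KRT1, KRT27 and KRT38 without tumour 2 or without tumours 2, 3 and 4, and PRPH without EV tumour 3.

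With the replicate block, 2661 genes and 4 hemidesmosome and plakin genes were called. That fit compares same-numbered tumours only and leaves TAZ-4SA tumours 4, 5 and 6 out of the contrast. Deviations of same-numbered tumours correlated at 0.031, 0.004 and -0.047. With so few EV tumours, these values cannot decide whether the numbers pair tumours. Depth limits the keratins with under 30 reads per EV tumour (KRT7, KRT86, KRT4, KRT5, KRT83), whose EV levels lie near the floor. KRT81 had 27 to 78 reads per EV tumour, so its ratio of TAZ-4SA to EV means also rests on few EV reads.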
